A study of Homo sapiens with 8 samples.

Results

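Polycomb proteins form chromatin complexes that keep developmental genes silent. Polycomb repressive complex 2 (PRC2) methylates a lysine of histone H3, and Polycomb repressive complex 1 (PRC1) binds that mark and ubiquitinates histone H2A. In pluripotent cells the complexes cover many promoters of lineage regulators. The genes described here encode PRC2 subunits (EZH2, the methyltransferase; EED, which reads the mark; SUZ12, a scaffold; JARID2, an accessory subunit) and PRC1 subunits (RING1 and RNF2, the ubiquitin ligases; BMI1, their RING-finger partner; PHC1, a polymerising subunit; CBX2 and CBX7, chromodomain proteins that read the mark). These 10 genes are a small part of the 19629 genes that the authors list beside peaks. For each peak the authors list the nearest gene start that it lies before and the nearest that it lies after, in the direction of each gene. A peak was assigned to a gene so listed at a distance of at most 50 kb from its start. This gave 119 of 201619 peaks.

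SOX2, OCT4 and NANOG, the transcription factors that maintain pluripotency, had been mapped by chromatin immunoprecipitation with sequencing (ChIP-seq) in NT2/D1 cells, an embryonal carcinoma line derived from a human germ cell tumour, and in H9 cells, a human embryonic stem cell line. The labels give no treatment for either line. The labels name 8 samples, and each factor had 1 library in each line, so differences carry no replicate error and no test was made. The NT2/D1 libraries had 10218752 to 23160564 unique tags and the H9 libraries 54046559 to 77649240, and the NT2/D1 peaks were called with a band width of 200 against 2000 in H9. A peak that was not called in 1 line is therefore not shown to be absent. For the NT2/D1 libraries of OCT4 and NANOG, the source name gives the other factor than the title. The titles were followed here, and the file headers name the same factors as the titles.

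Most of the genes had a peak of some factor, but so did most of the genes that the authors list. Genes never listed beside a peak are outside these shares. In NT2/D1 a SOX2 peak lay near 6 of the 10 genes (55.1% of all listed genes), an OCT4 peak near 9 (75.7%) and a NANOG peak near 7 (55.3%). In H9 a SOX2 peak lay near 7 (33.6%), an OCT4 peak near 7 (55.4%) and a NANOG peak near 8 (54.2%). In NT2/D1 all 10 genes had a peak of at least 1 factor (89.3% of all listed genes), and in H9 8 had one (74.0%), the exceptions being EZH2 and SUZ12. A peak of every factor, in any place within 50 kb, lay near 5 genes in NT2/D1 (34.3%) and 6 in H9 (23.8%). JARID2, RING1, RNF2 and PHC1 had a peak in all 6 lists, or 4 of 10 genes (11.5%). In both lines, 4 genes had a SOX2 peak (21.1%), 6 an OCT4 peak (45.0%) and 6 a NANOG peak (32.0%). The count for H9 SOX2 stood furthest above the share of all listed genes, and that for NT2/D1 SOX2 was close to it. The median gene of the 10 had 9.5 peaks over the 6 lists, against 5 for all listed genes.

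**Figure D1:**
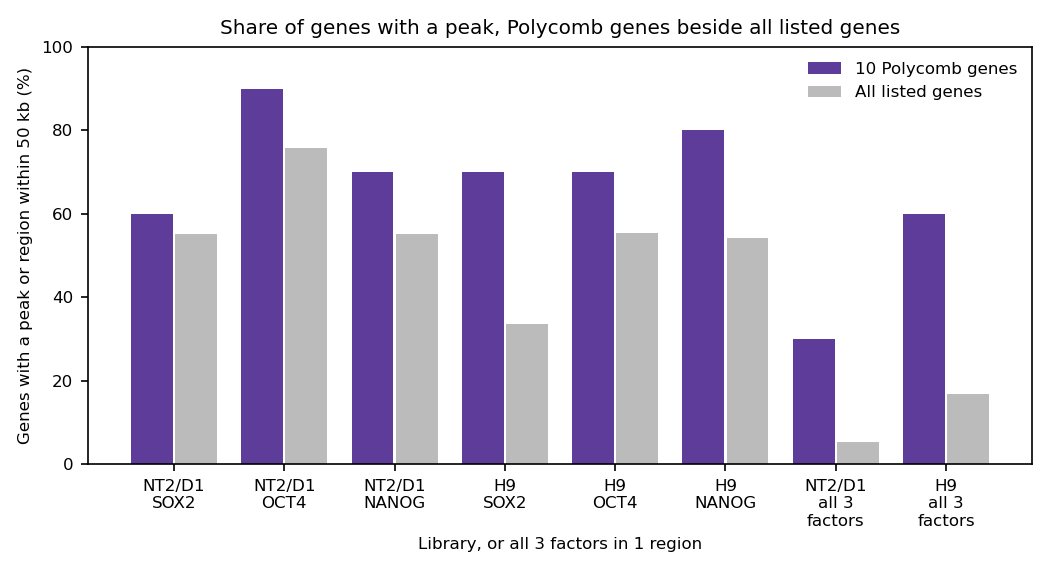
Bars give the percentage of the 10 Polycomb genes (purple) and of all 19629 listed genes (grey) with a peak within 50 kb in each library, and, in the last pairs, with 1 region that holds peaks of all 3 factors. The NT2/D1 SOX2 bars are nearly level (6 of 10 genes against 55.1%), and those for all 3 factors in H9 are far apart (6 of 10 against 16.9%).

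Peaks of all 3 factors in the same region, joined over overlapping peaks of a line, were less common. In NT2/D1, JARID2, RING1 and PHC1 had such a region, or 3 of 10 genes (5.41% of all listed genes). In H9 these 3 and RNF2, BMI1 and CBX2 had one, or 6 of 10 (16.9%). The 3 NT2/D1 genes thus had a region with all 3 factors in each line (3.48% of all listed genes), though not always in the same place. The JARID2 region with all 3 factors in NT2/D1 held no H9 OCT4 peak. None of EZH2, EED and SUZ12, the enzymatic core of PRC2, had a region with all 3 factors in either line. Most listed genes lacked one as well, so this absence does not set these 3 apart. Within 10 kb of the start the counts of genes with such a region fell to 1 in NT2/D1 (PHC1) and 3 in H9 (JARID2, PHC1 and BMI1). The share of all listed genes at this distance was not worked out.

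**Figure D2:**
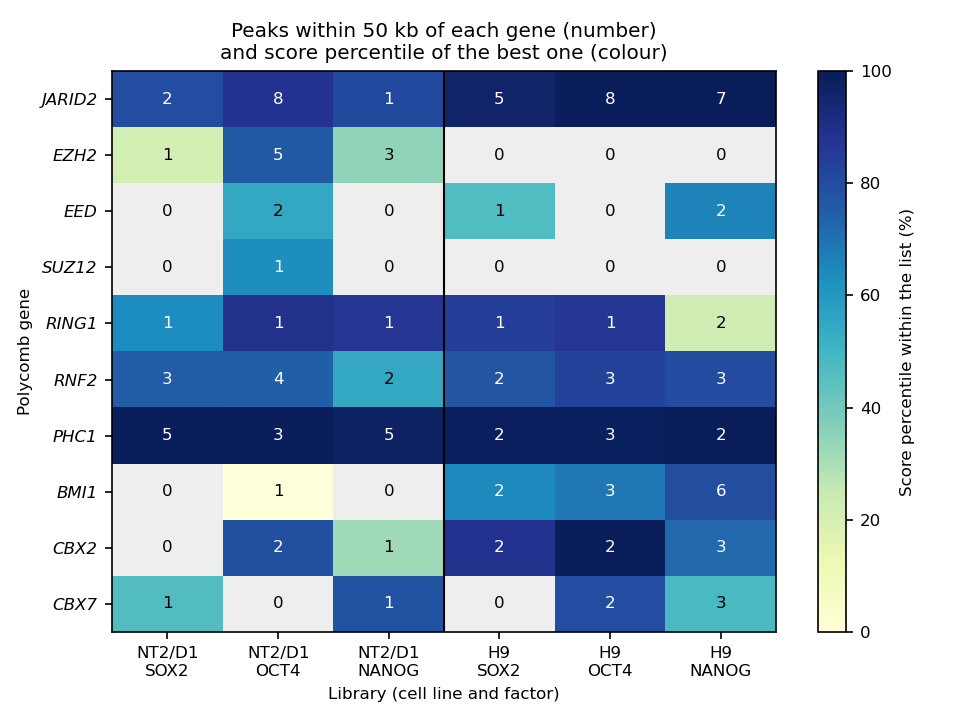
Each cell gives the number of peaks within 50 kb of a Polycomb gene (rows) in a library (columns, NT2/D1 left of the line, H9 right), and its colour the score percentile of the strongest of them within that list, with grey for no peak. PHC1 is dark in all 6 libraries, EZH2 has peaks in NT2/D1 only, and SUZ12 has 1 peak in all.

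PHC1, the polyhomeotic subunit through which PRC1 complexes join into larger assemblies, had a strong peak in every list: over the 6 lists, the score percentile of its strongest peak was 97.49 at the lowest, against 80.1 for JARID2. Its main region lay on chromosome 12 from 9063458 to 9066011 (hg19), upstream of the gene start at 9067315, and was called in all 6 lists. In NT2/D1 the SOX2 peak there held 88 tags (fold enrichment 14.2), the OCT4 peak 64 (16.4) and the NANOG peak 64 (11.0). In H9 the SOX2 peak held 234 tags (fold enrichment 20.9), the OCT4 peak 135 (10.4) and the NANOG peak 390 (31.0). Tags are sequenced fragments counted in a peak, and fold enrichment compares them with local background. Both, like the score, come from the authors' peak caller and are set only against other peaks of the same list. A score percentile is the rank of a peak by score within its list, as a percentage with ties averaged.

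All 6 peaks were among the strongest of their lists. By score, their percentiles were 99.2, 98.9 and 97.5 for SOX2, OCT4 and NANOG in NT2/D1, and 98.1, 98.6 and 99.2 in H9. Of the genes with a peak, 1.57% had a best NT2/D1 SOX2 peak at least as strong, 2.03% for OCT4 and 4.27% for NANOG. In H9 the corresponding shares were 2.45%, 1.76% and 1.15%. The 6 summits lay within 27 bp of each other, on average 2.65 kb before the gene start. RING1 was the other gene of the 10 with a region called in all 6 lists, which 3.13% of all listed genes had.

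PHC1 had another shared region further upstream, on average 7.75 kb before the start, called in 5 lists (chromosome 12, 9058391 to 9060481). The NT2/D1 OCT4 peak was its strongest, with 59 tags, a fold of 13.5 and a percentile of 96.7. The NT2/D1 SOX2 peak had 21 tags and a percentile of 33.1, and no NT2/D1 NANOG peak was called there. In H9 the SOX2 peak had a percentile of 26.4, the OCT4 peak 84.6 and the NANOG peak 77.7. Summits of the 5 lists agreed within 59 bp.

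At the start of PHC1 itself, peaks were called for NT2/D1 NANOG. One ended 369 bp before the start, with 20 tags and a percentile of 79.9. Another began 94 bp after it, with 39 tags and a percentile of 96.9. No peak of the other 5 lists lay within 1 kb of this start. In all, 8 of the 10 PHC1 regions were called in NT2/D1 only. Those at 35369 and 46972 bp after the start were nearer to M6PR. Chromosome 12, where PHC1 lies, held 9.08%, 6.71% and 8.69% of all NT2/D1 SOX2, OCT4 and NANOG peaks, against 4.89%, 4.74% and 4.99% in H9. The part of this chromosome-wide difference in the PHC1 count was not tested.

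The RefSeq promoter table (GRCh38.p14) holds 2 starts for PHC1. They are shown because NANOG peaks flank the start in NT2/D1; which of them is the start the authors used was not worked out, since the builds differ. Capitals mark CATTGT, a core of the SOX motif, searched on both strands.
PHC1, chr12:8913593-8913892, plus strand: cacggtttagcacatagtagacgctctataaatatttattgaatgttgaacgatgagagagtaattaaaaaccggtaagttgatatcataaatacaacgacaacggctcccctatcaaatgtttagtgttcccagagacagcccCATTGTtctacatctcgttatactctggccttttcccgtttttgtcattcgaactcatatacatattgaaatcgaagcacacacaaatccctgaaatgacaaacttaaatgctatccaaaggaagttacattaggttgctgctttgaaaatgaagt
PHC1, chr12:8914259-8914558, plus strand: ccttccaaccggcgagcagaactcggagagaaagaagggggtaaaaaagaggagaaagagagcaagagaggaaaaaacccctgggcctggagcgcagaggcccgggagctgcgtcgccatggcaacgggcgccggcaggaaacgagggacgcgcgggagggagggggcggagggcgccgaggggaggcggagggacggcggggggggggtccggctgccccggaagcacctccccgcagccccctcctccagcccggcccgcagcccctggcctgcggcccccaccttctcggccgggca
The first holds CATTGT 106 bases before its start, and the other holds no match. Of 35114 promoters of this length in the table, 10.8% hold CATTGT. Their base composition differs, with 37% G and C in the first and 72.3% in the other.

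JARID2, which guides PRC2 to its sites in pluripotent cells, had the most peaks of the 10 genes. It had 11 peaks in NT2/D1 and 20 in H9, a total that 0.474% of all listed genes reached or passed. OCT4 contributed 8 peaks in each line. SOX2 had 2 in NT2/D1 and 5 in H9, and NANOG had 1 in NT2/D1 and 7 in H9. Its 31 peaks fell into 13 regions, of which 2 were called in NT2/D1 only and 6 in H9 only. The gene lies on chromosome 6, which held 1.98 to 4.02% of the peaks of a list in NT2/D1 and 6.42 to 7.17% in H9. The part of this in the JARID2 counts was not tested.

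The strongest JARID2 region lay on average 37.6 kb before the start at 15246526 (chromosome 6, 15207960 to 15209808, hg19). In NT2/D1 it held a SOX2 peak of 21 tags (fold 5.62, percentile 80.1) and an OCT4 peak of 10 tags (fold 11.8, percentile 67.0). No NANOG peak was called there in NT2/D1. In H9 the SOX2 peak held 161 tags (fold 11.4), the OCT4 peak 167 (9.39) and the NANOG peak 288 (21.5). The H9 percentiles were 95.96, 98.9 and 99.3, so this region ranked among the strongest of each H9 list and not of the NT2/D1 lists.

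Of the regions shared by the lines, a pair called in at least 4 of the 6 lists lay downstream of the JARID2 start. The region on average 22.5 kb after the start (15267940 to 15269766) was called for each factor in NT2/D1, where the SOX2 peak held 14 tags, the OCT4 peak 7 and the NANOG peak 17. Their percentiles were 13.1, 15.3 and 80.9. In H9 it held a SOX2 peak of 131 tags (percentile 81.1) and a NANOG peak of 224 tags (fold 15.7, percentile 95.6), and no OCT4 peak. The NT2/D1 OCT4 peak joined this region by its edge: with an overlap of 50% of each peak required, JARID2 no longer counted among the NT2/D1 genes with all 3 factors.

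The other region lay on average 18.7 kb after the start (15264437 to 15266104). It held an OCT4 peak of 15 tags in NT2/D1 (percentile 88.04), the strongest NT2/D1 OCT4 peak of the gene. In H9 it held all 3 factors, and the SOX2 peak had a percentile of 57.1, the OCT4 peak 10.5 and the NANOG peak 89.6. The summits of the 4 lists lay within 73 bp. Closer to the start, a region of all 3 factors in H9 lay on average 6.09 kb upstream (15239751 to 15240773), with no NT2/D1 peak. Its NANOG peak had 80 tags (percentile 85.3) and its OCT4 peak 61 tags (percentile 11.03). A region shared by the lines lay nearer still, on average 2.56 kb upstream, with summits spread over 1172 bp. Its best percentiles were 79.3 for NT2/D1 OCT4, 70.5 for H9 OCT4 and 67.5 for H9 NANOG. These best OCT4 peaks did not overlap each other, and the H9 NANOG peak joined them. A further shared region, on average 30.4 kb after the start, held an NT2/D1 OCT4 peak (percentile 49.0) and an H9 SOX2 peak (18.1).

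Over the 6 lists, the genes whose best score percentiles were most like those of JARID2 were SLC7A5, an amino acid transporter gene, CNKSR3 and UGP2. The Euclidean distances between their 6 percentiles and those of JARID2 were 4.97, 8.63 and 8.79. There were 2266 genes with a peak in every list to compare.

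**Figure D3:**
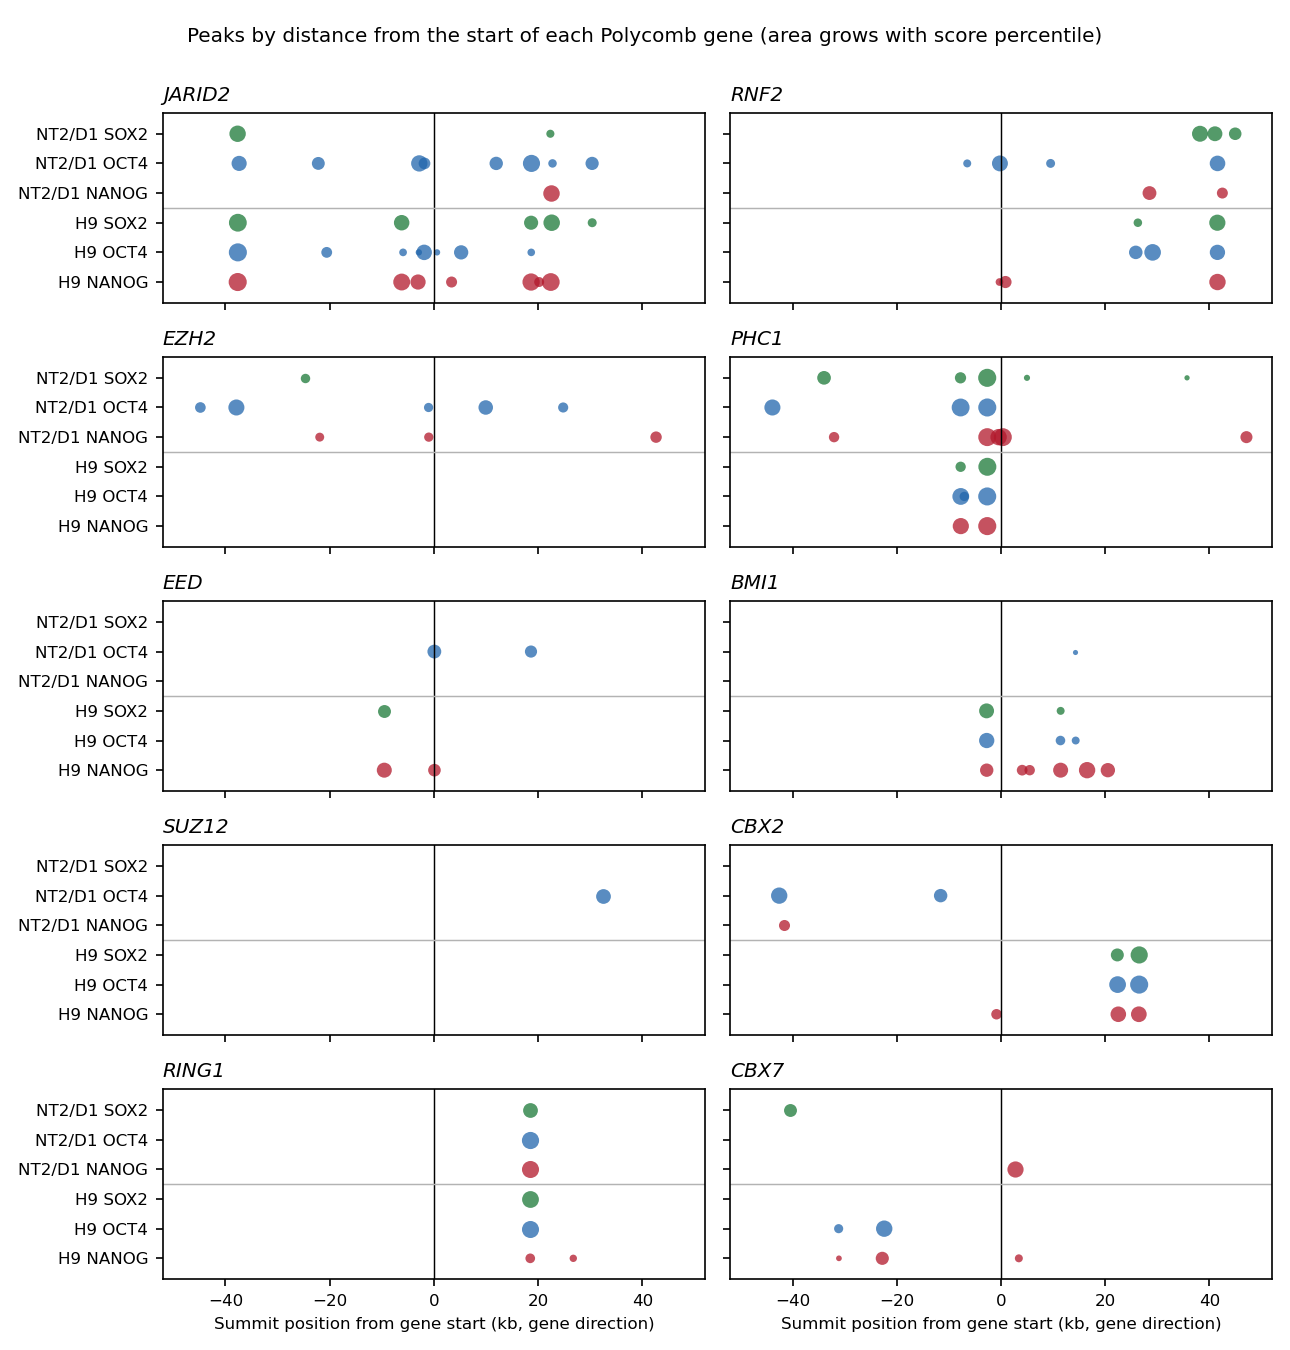
Each panel is 1 Polycomb gene, with the 6 libraries as rows (NT2/D1 above the grey line, H9 under it) and the summit of each peak placed by its distance in kb from the gene start, positive in the direction of the gene. Point area grows with the score percentile of the peak within its list, and colours mark SOX2 (green), OCT4 (blue) and NANOG (red). Columns of points show PHC1, RING1, JARID2 and RNF2 regions shared by both lines, and the EZH2 panel is empty in H9.

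EZH2, the gene of the methyltransferase, had 9 peaks in NT2/D1 and none in H9. Of the NT2/D1 peaks, 1 was for SOX2, 5 were for OCT4 and 3 for NANOG. Most ranked low by score within their lists, and the highest percentile was 76.3, for an OCT4 peak of 7 tags 37.8 kb from the start. Tags ran from 7 to 20, beside medians of 11, 7 and 9 in the NT2/D1 SOX2, OCT4 and NANOG lists. An OCT4 and a NANOG peak overlapped close to the EZH2 start (chromosome 7, 148582140 to 148582569, hg19; the start lies at 148581414). They had 7 and 11 tags and percentiles of 19.5 and 19.9. Chromosome 7 held 10.9%, 7.57% and 10.8% of all NT2/D1 SOX2, OCT4 and NANOG peaks, against 5.89%, 5.48% and 5.50% in H9. The part of this difference in the EZH2 count was not tested. The nearest H9 peak listed for EZH2 was a NANOG peak of 33 tags, 56.1 kb from the start and just past the distance limit.

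EED, whose product binds the histone mark that PRC2 deposits, had 2 peaks in NT2/D1 and 3 in H9. A peak lay at its start in both lines, but for different factors. The NT2/D1 OCT4 peak began 6 bp after the start at 85955814 (chromosome 11, hg19), with 6 tags, a fold of 10.6 and a percentile of 54.3. The H9 NANOG peak spanned the start, with 38 tags, a fold of 4.18 and a percentile of 43.9. The summits lay within 20 bp of each other. A further region, 8.98 to 9.18 kb upstream, held SOX2 and NANOG peaks in H9 (44 and 37 tags) and none in NT2/D1.

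SUZ12, the scaffold of PRC2, was listed for 1 peak within 50 kb in the 6 lists. It was an NT2/D1 OCT4 peak of 5 tags, 32.3 kb after the start, with a percentile of 63.1. Within 50 kb, 97.2% of all listed genes had at least as many peaks over the 6 lists. Another NT2/D1 OCT4 peak, of 9 tags (percentile 72.4), lay 26.3 kb from the SUZ12 start but is listed for UTP6 and ARGFXP2.

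RING1 and RNF2 encode the alternative ubiquitin ligases of PRC1, and both had a distal region shared by the lines. The RING1 region (chromosome 6, 33194423 to 33195149, hg19) lay on average 18.4 kb after the start at 33176285 and was called in all 6 lists. In NT2/D1 its SOX2 peak held 15 tags (fold 8.49), its OCT4 peak 11 (13.7) and its NANOG peak 13 (8.80). In H9 its SOX2 peak held 90 tags (fold 7.22), its OCT4 peak 74 (5.71) and its NANOG peak 46 (4.91). The percentiles were 63.4, 88.7 and 87.1 in NT2/D1 and 84.4, 87.03 and 22.3 in H9. H9 NANOG was thus the weak member of the region, and RING1 left the H9 genes with all 3 factors when only the upper 50% of each list was kept. The summits of the 6 lists lay within 107 bp. The only other RING1 peak was an H9 NANOG peak 26.3 kb from the start (percentile 9.37).

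RNF2 had 9 peaks in NT2/D1 and 8 in H9, in 11 regions. The region called most often lay on average 41.4 kb after the start at 185014550 (chromosome 1, 185055439 to 185056449, hg19). In NT2/D1 it held a SOX2 peak of 11 tags (fold 6.60, percentile 64.2) and an OCT4 peak of 9 tags (fold 11.3, percentile 71.3). These peaks did not overlap each other, and a NANOG peak of 10 tags lay in a region of its own, 42.4 kb from the start. In H9 the SOX2 peak of the shared region held 53 tags (fold 7.67, percentile 77.7), the OCT4 peak 28 (6.62, 68.6) and the NANOG peak 50 (10.5, 80.1). The summits of the 5 lists in the shared region were spread over 490 bp. Of the 11 regions, 6 were called in NT2/D1 only and 3 in H9 only. Chromosome 1 held 17.4%, 11.7% and 17.4% of all NT2/D1 SOX2, OCT4 and NANOG peaks, against 8.27%, 8.42% and 8.28% in H9. Its part in the RNF2 counts was not tested.

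**Figure D4:**
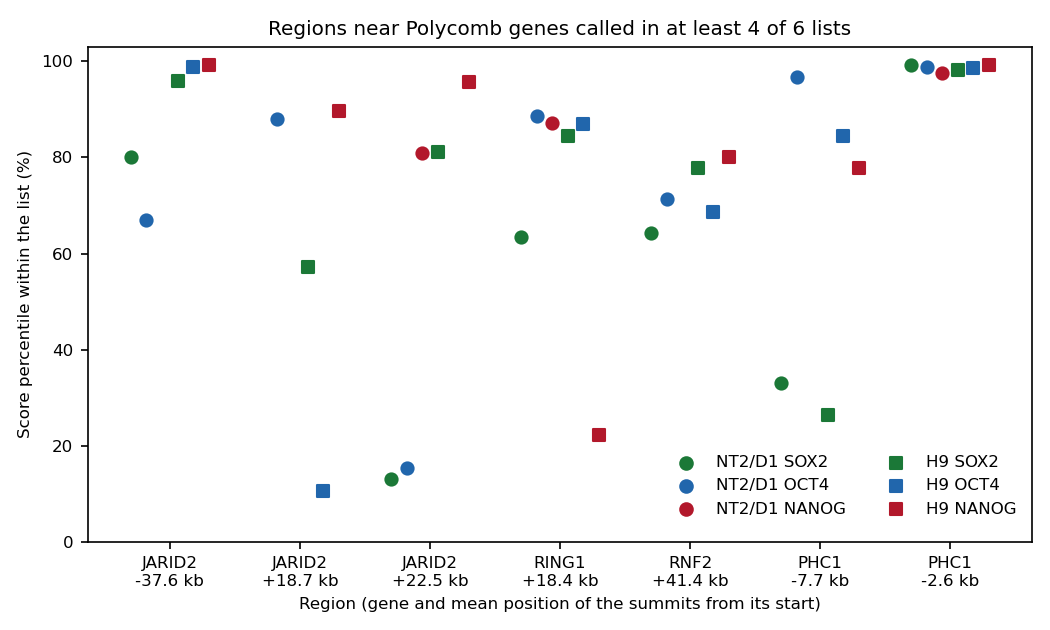
Points give the score percentile, within its own list, of the strongest peak of each library in the 7 regions called in at least 4 of the 6 lists, with circles for NT2/D1, squares for H9 and colours for the factors. The lowest of the 6 points of the PHC1 region 2.65 kb before the start is at 97.49, and the JARID2 region 37.6 kb before the start is higher in the H9 lists than in the NT2/D1 lists.

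RNF2 and EED had peaks over or close to the start, and their RefSeq promoter sequences (GRCh38.p14, 250 bases before to 50 after the start) are shown for that reason. At RNF2, an NT2/D1 OCT4 peak of 9 tags (percentile 74.9) ended 129 bp before the start and an H9 NANOG peak of 23 tags (percentile 10.9) ended 101 bp before it. Neither sequence holds ATGCAAAT (the octamer that OCT4 binds, found in 1.77% of promoters), CATTGT or TAATGG (a core bound by NANOG, found in 6.81%) on either strand, so no base is in capitals.
RNF2, chr1:185045308-185045607, plus strand: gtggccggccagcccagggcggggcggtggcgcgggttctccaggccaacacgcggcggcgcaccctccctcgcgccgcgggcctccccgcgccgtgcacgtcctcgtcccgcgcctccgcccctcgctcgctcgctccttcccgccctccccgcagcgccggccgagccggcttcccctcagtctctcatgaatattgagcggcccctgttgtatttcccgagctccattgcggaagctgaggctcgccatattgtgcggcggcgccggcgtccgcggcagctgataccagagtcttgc
EED, chr11:86244503-86244802, plus strand: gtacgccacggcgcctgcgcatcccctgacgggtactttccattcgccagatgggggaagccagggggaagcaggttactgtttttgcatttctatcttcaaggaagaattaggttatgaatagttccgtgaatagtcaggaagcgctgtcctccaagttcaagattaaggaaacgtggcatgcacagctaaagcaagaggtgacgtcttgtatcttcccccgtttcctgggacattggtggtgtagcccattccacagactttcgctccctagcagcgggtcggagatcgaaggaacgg
The RNF2 sequence has 73% G and C and 41 CpG dinucleotides, and the EED sequence 52.3% and 16. The table has 13 promoters for 9 of the 10 genes, with a median of 73.3% G and C and 40 CpG dinucleotides, against 58.7% and 14 for all promoters. CATTGT occurred in 1 promoter each of JARID2, SUZ12 and PHC1, and the other motifs in none of the 13.

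BMI1, a partner that stimulates the ligase of PRC1, had 1 peak in NT2/D1 and 11 in H9. The NT2/D1 peak, for OCT4, held 6 tags and lay at the bottom of its list (percentile 0.052), 14.1 kb from the start at 22610005 (chromosome 10, hg19). It overlapped an H9 OCT4 peak of 18 tags (percentile 12.1). H9 had a pair of regions with all 3 factors. The first (22606640 to 22607711) lay on average 2.76 kb before the start with 63 tags in the SOX2 peak, 22 in the OCT4 peak and 32 in the NANOG peak. Its percentiles were 64.7, 68.4 and 50.4, its summits lay within 27 bp, and the start of COMMD3 was nearer to it. The other lay on average 11.4 kb after the start (22620899 to 22622107), and the SOX2 peak there had a percentile of 12.3, the OCT4 peak 21.7 and the NANOG peak 65.5. A further 4 H9 NANOG peaks stood alone, of which the strongest, 16.2 kb from the start, had 74 tags (percentile 79.5) and was nearer to SPAG6. With an overlap of 50% of each peak required, BMI1 left the H9 genes with all 3 factors.

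The CBX2 peaks of the lines lay in different places. In NT2/D1, OCT4 peaks of 8 and 6 tags lay 42.4 and 11.5 kb before the start, and a NANOG peak of 8 tags lay 41.5 kb before it. In H9, regions with all 3 factors lay on average 22.4 and 26.5 kb after the start at 77751992 (chromosome 17, hg19). The further one (77778213 to 77779244) held a SOX2 peak of 61 tags (fold 9.78, percentile 88.6), an OCT4 peak of 113 (11.35, 99.1) and a NANOG peak of 56 (4.83, 72.6). Of the genes with an H9 OCT4 peak, 1.09% had a best peak at least as strong. CBX8, which encodes another chromodomain subunit of PRC1, starts nearer to it, at 7323 to 7378 bp. When each peak was given to its nearer gene only, CBX2 therefore left the genes with all 3 factors. A NANOG peak of 48 tags (percentile 27.8) ended 0.596 kb before the CBX2 start in H9.

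CBX7, the main chromodomain gene of PRC1 in mouse embryonic stem cells, had 2 peaks in NT2/D1 and 5 in H9. In NT2/D1 a NANOG peak of 10 tags (percentile 77.8) lay 2.51 kb after the start at 39548538 (chromosome 22, hg19), and a SOX2 peak of 9 tags (percentile 46.3) lay 40.4 kb before it. In H9, OCT4 and NANOG peaks overlapped at 22.1 to 22.3 kb before the start (68 and 55 tags, percentiles of 79.8 and 48.3) and again at 30.3 to 30.4 kb (75 and 63 tags, percentiles of 18.9 and 2.21). No H9 SOX2 peak was listed for CBX7 within the limit. An H9 NANOG peak of 34 tags (percentile 12.5), 2.85 kb after the start, lay beside the NT2/D1 NANOG peak and did not overlap it.

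Over all 10 genes the 119 peaks fell into 66 regions. Peaks of both lines met in 12 of them, while 31 were called in NT2/D1 only and 23 in H9 only. Of the NT2/D1-only regions, 30 held a single list and none held all 3 factors. Of the H9-only regions, 14 held a single list and 5 held all 3 factors. The same split was not worked out for regions near all listed genes. Whether it is particular to the 10 genes was therefore not tested, and depth and band width differed between the lines. For OCT4, 9 of 27 NT2/D1 peaks (33.3%) overlapped an H9 OCT4 peak, against 15.7% of NT2/D1 OCT4 peaks near any listed gene, and 10 of 22 H9 peaks (45.5%) overlapped an NT2/D1 OCT4 peak, against 24.8%. For SOX2 the counts were 6 of 13 NT2/D1 peaks (46.2%, against 7.42% near any gene) and 6 of 15 H9 peaks (40%, against 16.7%). For NANOG they were 3 of 14 NT2/D1 peaks (21.4%, against 9.11%) and 3 of 28 H9 peaks (10.7%, against 9.86%). Peaks near the same gene are not independent, and 10 of the 12 regions with both lines lay near JARID2, PHC1, RING1 or RNF2.

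The share of peaks close to a gene start was near that of all listed genes. Of the 119, 11 lay within 1 kb of a start (9.24%, against 11.9% for all listed genes) and 46 within 10 kb (38.7%, against 35.9%). There were 54 peaks before the start, 64 after it and 1 over it. Another gene was nearer for 17 of them (14.3%, against 22.8%). The farthest peak inside the limit lay 46972 bp from PHC1 (NT2/D1 NANOG, 8 tags), and the closest one outside lay 53627 bp from JARID2 (H9 SOX2, 30 tags).

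Other Polycomb genes were near such regions as well. Of 48 further genes of the complexes, 45 are listed beside a peak. In NT2/D1 a SOX2 peak lay near 31 of the 45 (55.1% of all listed genes), an OCT4 peak near 38 (75.7%) and a NANOG peak near 29 (55.3%). In H9 a SOX2 peak lay near 19 (33.6%), an OCT4 peak near 31 (55.4%) and a NANOG peak near 31 (54.2%). A region of all 3 factors lay near 5 in NT2/D1 and 14 in H9. The 5 (FBRS, FOXK1, AUTS2, BCOR and ASXL2) had one in each line, whether or not in the same place. The 14 include CBX8, whose H9 regions of this kind are those already counted for CBX2. The share of 5 in 45 and of 14 in 45 stands beside 5.41% and 16.9% of all listed genes.

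FBRS, FOXK1, L3MBTL2 and AUTS2 had the highest score percentiles among these genes. FBRS encodes a subunit found in variant PRC1 complexes, and the strongest of its 2 peaks in each list lay 13.3 to 13.6 kb from its start. In NT2/D1 this SOX2 peak held 66 tags (fold 30.2), the OCT4 peak 97 (22.2) and the NANOG peak 48 (25.9). In H9 the SOX2 peak held 391 tags (fold 27.9), the OCT4 peak 296 (23.4) and the NANOG peak 387 (31.8). AUTS2, also a subunit of variant PRC1, had its strongest peak for NANOG in both lines, with 38 tags in NT2/D1 (fold 22.1, 46.7 kb from the start) and 188 in H9 (fold 30.7, 9.73 kb from the start). FOXK1, a DNA-binding partner of the histone H2A deubiquitinase, had SOX2, OCT4 and NANOG peaks of folds 20.2, 17.3 and 12.25 in NT2/D1 and 15.1, 11.4 and 16.8 in H9. L3MBTL2, a subunit of variant PRC1, had its strongest peak for OCT4 in NT2/D1 (35 tags, fold 26.6) and a percentile of 71.4 for OCT4 in H9. It had no NANOG peak in NT2/D1.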

How the data were processed

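The authors ran MACS on each library alone against an IgG library, at a p-value cutoff of 0.001 and a tag size of 50, per the file headers. Coordinates are hg19, a build named in the submitters' processing notes, and the aligner was not given in these sources. Model fold was 5 for NT2/D1 OCT4 and 3 otherwise, per the file headers. NT2/D1 SOX2 and NANOG shared an IgG library (2937004 unique tags), NT2/D1 OCT4 had another (6479071), and the 3 H9 lists shared one (58012070).

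Deposited tags are raw counts of ChIP tags per peak. Deposited fold is the authors' ratio over local background. The deposited score, its column name overwritten, was read as -10 times log10 of p from its minimum of 30. The deposited FDR in percent rose with score in NT2/D1 SOX2 and NANOG and was not used to rank or select peaks. Values were used within a list only, as percentiles of score. Distances to the listed genes were added by the submitters, per the file headers, and gene starts were recovered from them.

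Overlaps of 1 bp joined peaks. With 1 library per group there was no test. Python 3.11.15 and pandas 2.3.3 were used, and assignment and merging were checked on simulated peaks. The members and lists were chosen with earlier results of these data known. Named are the 10 genes, nearer neighbours, the 4 highest of the other Polycomb list and the 3 genes most like the member with most peaks; BCOR and ASXL2 were named after their values were seen. Alternatives were 10 kb, the upper 50% by score, the nearer gene only, a 50% overlap, the NT2/D1 libraries exchanged and, added after seeing the data, assignment by position. The IgG samples entered only as the authors' controls.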

Additional observations from a re-analysis of the deposited data

How the results depend on the processing

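No paired analysis was possible because each factor and line had 1 library. Within 10 kb, peaks near the 10 genes numbered 3, 10 and 5 for SOX2, OCT4 and NANOG in NT2/D1 and 5, 9 and 14 in H9. The genes with a peak then numbered 1, 5 and 3 in NT2/D1, and 4 (SOX2) and 3 (OCT4) in H9. All 3 factors met near 1 gene in NT2/D1 and 3 in H9, and 1, 2 and 2 genes had a SOX2, OCT4 or NANOG peak in both lines. In the upper 50% by score there were 6, 16 and 7 peaks in NT2/D1 and 9, 13 and 15 in H9, and 3 genes had a NANOG peak in both lines. The matching shares of all listed genes, within 10 kb or in the upper 50%, were not worked out. When the 2 NT2/D1 libraries with conflicting source names changed places, OCT4 had 14 and NANOG 27 NT2/D1 peaks. All counts under the nearer gene only, a 50% overlap and assignment by position stayed within 1.5 times the main count. Shallower NT2/D1 libraries and IgG controls limit what an uncalled peak there can show.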

Other observations

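Peaks close to a Polycomb gene can be listed for neighbours alone. For each peak the authors name 1 gene whose start it lies before and 1 whose start it lies after. By position, a further 11 peaks lay within 50 kb of the CBX2 start, 7 of BMI1 and 6 of RING1. There were 4 each for PHC1 and CBX7, 1 each for SUZ12 and RNF2, and none for JARID2, EZH2 or EED. For PHC1 the further peaks included an H9 SOX2 peak of 39 tags and an H9 OCT4 peak of 27 tags. They lay 27.3 and 29.4 kb from its start and are listed for KLRG1 and M6PR. For BMI1 these included overlapping peaks 40.4 to 40.6 kb from its start that are listed for COMMD3. In NT2/D1 they were an OCT4 peak of 9 tags (fold 13.3, percentile 79.6) and a NANOG peak of 13 tags (fold 10.2, percentile 95.5). In H9 they were a SOX2 peak of 64 tags (fold 9.25, percentile 82.8) and a NANOG peak of 55 tags (fold 10.01, percentile 82.1). By the listed genes, BMI1 had 1 weak peak in NT2/D1, so its NT2/D1 signal depends on how peaks are given to genes.

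Beyond 50 kb, JARID2 and EZH2 were listed for many more peaks, in 83 and 113 regions. JARID2 had a region called in all 6 lists 223 to 225 kb before its start (chromosome 6, 15021273 to 15023323, hg19). Its percentiles were 77.1, 96.5 and 97.9 for SOX2, OCT4 and NANOG in NT2/D1, and 72.7, 93.98 and 97.1 in H9. EZH2, with no H9 peak within 50 kb, was listed for H9 regions with all 3 factors further upstream, of which the closest (148637506 to 148638978 and 148680466 to 148681221 on chromosome 7) lay 56.1 to 57.1 and 99.05 to 99.2 kb from the start. Each also held an NT2/D1 OCT4 peak, of 13 tags (fold 13.1, percentile 92.5) and 29 tags (fold 15.9, percentile 96.2). Whether these regions act on the listed genes was not measured.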
